A study of Arabidopsis thaliana with 45 samples.

Results

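Nuclear genes for the photosynthetic apparatus were followed in whole Arabidopsis thaliana seeds. The 38 genes encode light-harvesting antenna proteins of photosystem I (LHCA, 4 genes) and photosystem II (LHCB, 13 genes), subunits of photosystem I (PSA, 9 genes) and photosystem II (PSB, 6 genes), plastocyanin (PETE, 2 genes) and the small subunit of Rubisco (RBCS, 4 genes). They were chosen by locus name, whatever their level, out of 27587 loci in the deposited table, and all 38 were found there. Of these, 26 had enough counts to be tested among 18066 tested loci.

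Estimated transcript counts came from 45 libraries of total RNA from entire seeds of the Col0 ecotype. The labels name a wild type (WT), a cyp79B2 cyp79B3 mutant (cyp), a myb28 myb29 mutant (myb) and the combined mutant that carries all 4 (qko), each as dry seeds or imbibed for 6 h with water, KNO3 (10 mM) or KSCN (8 µM). CYP79B2 and CYP79B3 act in the synthesis of indolic glucosinolates, and MYB28 and MYB29 are transcription factors for the aliphatic ones. There were 3 libraries in 13 of the 16 groups and 2 in the remaining 3 (dry myb, myb with KNO3, cyp with KSCN). Whether replicates are separate plants or seed lots is not stated in the labels, so p-values measure the spread between these samples.

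Library totals ran from 18097331 to 22910834 counts. The counts of the targeted genes did not settle whether the genotype labels hold. MYB28 had 0 counts in every library, so it cannot tell the labels apart. MYB29 had 0 counts in every WT library but up to 6 in water-imbibed libraries labelled myb. CYP79B3 had 85 to 124 counts in water-imbibed libraries labelled cyp against 3 to 5 in WT. In qko in water, CYP79B3 had 13 to 24 counts and CYP79B2 had 0. CYP79B2 had 8 to 15 counts in cyp in water and 0 to 2 in WT. Groups are therefore called by their labels below. Of the 5 embryo markers (3 storage protein genes, the oil body gene OLEO1 and the transcription factor gene ABI3) none was at 0, with summed levels of 159657 to 179542 CPM (counts scaled to a common library size) in dry WT seeds. The 2 endosperm markers, EPR1 and EXPA2, summed to 16088 to 18410 CPM there, and the 4 seed coat markers together reached at most 4.505 CPM in the dry and water groups. The replicate 7 libraries of qko stood above the other imbibed qko libraries in the summed level of the photosynthesis genes, and imbibed cyp libraries numbered 8 stood below the others, so results in these genotypes were also computed without them.

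The antenna proteins bind chlorophyll and pass excitation energy to the reaction centres of the photosystems. Photosystem II splits water, plastocyanin carries electrons to photosystem I, and Rubisco fixes carbon dioxide. The nuclear genes of these proteins are strongly expressed in green tissue and respond to light and to the state of the plastid. Embryos of Arabidopsis are green during development and lose their chlorophyll as the seed matures.

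The promoters of 5 genes whose levels the results turn on are shown, as the 250 bases before the annotated gene start in RefSeq TAIR10.1, in the direction of the gene. LHCB4.1 (chr5:208616-208865, plus strand) and LHCB5 (chr4:6407757-6408006, plus strand) belong to antenna genes that fell on imbibition in every genotype. RBCS1A (chr1:25049668-25049917, minus strand), RBCS3B (chr5:15378643-15378892, minus strand) and PETE2 (chr1:7043393-7043642, minus strand) belong to genes that rose in imbibed seeds labelled cyp. Capitals mark matches on either strand to the letters of the G-box (CACGTG), the I-box (GATAAG), a GLK-type element (CCAATC), the evening element (AAAATATCT), the RY element (CATGCA) and a GT-1 type element (GGTTAA).
LHCB4.1: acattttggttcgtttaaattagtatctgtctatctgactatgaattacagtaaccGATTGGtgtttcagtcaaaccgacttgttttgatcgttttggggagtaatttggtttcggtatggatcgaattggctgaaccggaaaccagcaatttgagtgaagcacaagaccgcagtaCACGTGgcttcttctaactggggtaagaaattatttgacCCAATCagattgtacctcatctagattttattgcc
LHCB5: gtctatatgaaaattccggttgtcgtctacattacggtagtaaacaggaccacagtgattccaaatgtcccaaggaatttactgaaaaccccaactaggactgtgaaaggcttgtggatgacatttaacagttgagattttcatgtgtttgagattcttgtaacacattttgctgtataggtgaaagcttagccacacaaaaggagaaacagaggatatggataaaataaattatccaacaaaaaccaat
RBCS1A: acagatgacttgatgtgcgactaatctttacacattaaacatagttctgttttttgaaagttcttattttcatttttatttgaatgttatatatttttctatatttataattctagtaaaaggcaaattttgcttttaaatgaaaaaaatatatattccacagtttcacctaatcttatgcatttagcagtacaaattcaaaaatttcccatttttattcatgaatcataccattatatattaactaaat
RBCS3B: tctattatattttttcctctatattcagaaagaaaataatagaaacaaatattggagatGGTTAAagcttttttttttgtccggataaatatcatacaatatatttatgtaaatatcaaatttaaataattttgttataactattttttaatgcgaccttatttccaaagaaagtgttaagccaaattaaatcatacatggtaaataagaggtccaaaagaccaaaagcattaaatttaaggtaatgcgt
PETE2: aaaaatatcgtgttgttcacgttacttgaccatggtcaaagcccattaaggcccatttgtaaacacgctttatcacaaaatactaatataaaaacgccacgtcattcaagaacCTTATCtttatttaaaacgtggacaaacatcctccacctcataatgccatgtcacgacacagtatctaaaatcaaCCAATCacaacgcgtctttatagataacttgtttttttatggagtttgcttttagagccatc

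LHCB4.1 held a G-box and a pair of GLK-type matches, PETE2 an I-box and a GLK-type match, and RBCS3B a GT-1 type match. LHCB5 and RBCS1A held none of the 6 motifs in this window. The annotated gene start lies 418 genomic bases ahead of the coding region in RBCS1A and 336 in RBCS3B, against 218 in LHCB4.1, 193 in LHCB5 and 119 in PETE2, so the windows do not sit at the same distance from the protein start. Over all 38 genes, the GLK-type letters were found in 11 promoters (28.9%, against 10.2% of 27390 promoters), the I-box in 10 (26.3% against 12.3%) and the G-box in 7 (18.4% against 6.50%). The GT-1 type letters were in 6 (15.8% against 14.6%), the RY element in 4 (10.5% against 8.44%) and the evening element in 0 (against 2.36%). A match of letters is a description of the window and not evidence of binding.

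The photosynthesis genes made up a small share of seed RNA. Their summed level in dry WT seeds was 326, 327 and 366 CPM, with library sizes corrected by trimmed means (TMM), and this was 0.0214% of all counts. After 6 h in water the WT sum was 81.4 to 94.2 CPM. In libraries labelled cyp the sum was 364 to 400 CPM when dry and 201 to 290 CPM in water, above every imbibed WT library. The direction of this change in cyp turned with the scaling: in CPM of all counts, without TMM, the mean sum was 314.9 ± 19.4 (SD, n = 3) in dry and 345.8 ± 65.3 (SD, n = 3) in imbibed cyp seeds, while in WT it was 213.8 ± 12.1 and 93.2 ± 8.04 (SD, n = 3 each). In libraries labelled myb it was 196 and 215 CPM when dry and 72.8 to 91.5 CPM in water, and in qko 191 to 213 CPM when dry and 54.6, 60.2 and 97.8 CPM in water, the last being replicate 7. In RNA of whole seeds, fewer cells of a type and less RNA per cell cannot be told apart. For comparison, the summed level of the 81 plastid-encoded loci was 53.6 to 73.4 CPM in dry WT seeds, 12.3 to 15.3 CPM in WT in water and 14.6 to 17.1 CPM in cyp in water, and the last pair of ranges overlapped. That overlap holds for TMM scaling. In CPM of all counts, without TMM, the mean plastid sum was 14.97 ± 1.64 in WT and 21.5 ± 1.89 in cyp in water (SD, n = 3 each).

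**Figure D1:**
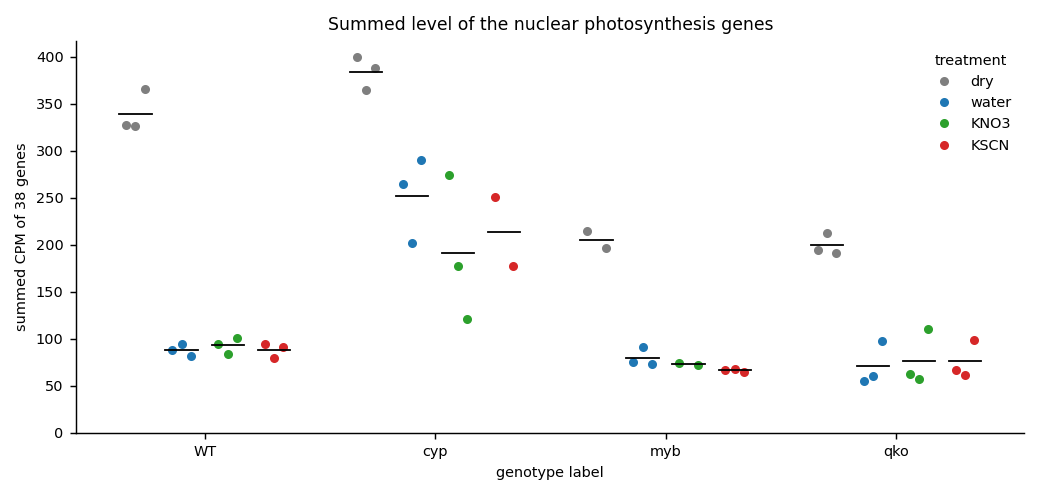
Summed CPM (linear axis from 0) of the 38 nuclear photosynthesis genes in each library, by genotype label and treatment; each point is a library and the line is the group mean. Imbibed libraries labelled cyp lie between 121 and 290 CPM, above all imbibed WT libraries, whose highest value is 101 CPM.

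Imbibition lowered most of the tested photosynthesis genes in WT. By edgeR's quasi-likelihood test with Benjamini-Hochberg adjustment over all tested loci (adjusted p under 0.05), 14 of the 26 were lower in water than in dry seeds, where 33.5% of all loci were lower. RBCS3B was the single gene that was higher, where 37.1% of all loci were higher. In myb, 10 were lower (31.3% of all loci) and 2 higher (34.8%), and in qko 9 were lower (32.2%) and 2 higher (36.9%). The higher genes in qko, PSAD1 and PSAF, lost the call in 5 of 13 and 8 of 12 alternatives. Those in myb, PSAF and PSBO1, lost it in 3 and 1 of 11. In cyp, 7 were lower (38.9%) and 12 were higher (40.8%). Among the 12 was RBCS2B, which reached the minimum count of 10 for testing in imbibed cyp libraries only. Its rise in cyp thus came with its being tested. The median log2 fold change of the 26 was -0.9986 in WT and 0.77 in cyp, with 0.28 in myb and -0.33 in qko, against 0.08, 0.04, 0.07 and 0.09 over all tested loci. These changes are relative to TMM scaling: scaling by total counts moved the median of all loci to 0.83 in WT and 0.78 in cyp, with 0.75 in myb and 0.81 in qko, and the calls in WT to 8 lower and 3 higher. In myb and qko, more genes were higher than lower with scaling by total counts. The falls of LHCB1.3, PSAD2, PSAG, PSAL, PETE2 and RBCS1A in WT did not pass with it, nor did those of PSBP1 in cyp, of LHCA1, LHCA4, LHCB1.5, PSBR, PSBW and RBCS1A in myb, and of LHCA1, LHCA4, LHCB4.2, PSBR, PSBW and RBCS1A in qko. With that scaling 82.5% of all called loci in WT were higher, 72.6% in cyp, 81.2% in myb and 81.8% in qko. In WT the fall of LHCB1.3 was also lost without dry replicate 8 or imbibed replicate 5, and that of PSAL without dry replicate 9 or imbibed replicate 5 or 9. Summed embryo markers were 53419 to 55187 CPM in WT in water. In cyp they were 58401 to 62206 CPM when dry and 7162 to 10716 CPM in water. ABI3 of the same list went the other way. Its mean went from 266.5 to 449 CPM in WT and from 230 to 555 CPM in cyp. The 2 endosperm markers also split. Mean EPR1 went from 16900 to 5588 CPM in WT and from 12480 to 2358 CPM in cyp. Mean EXPA2 went from 0.168 to 12.6 CPM in WT and from 0.417 to 370 CPM in cyp. The part of these differences in the result was not tested.

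**Figure D2:**
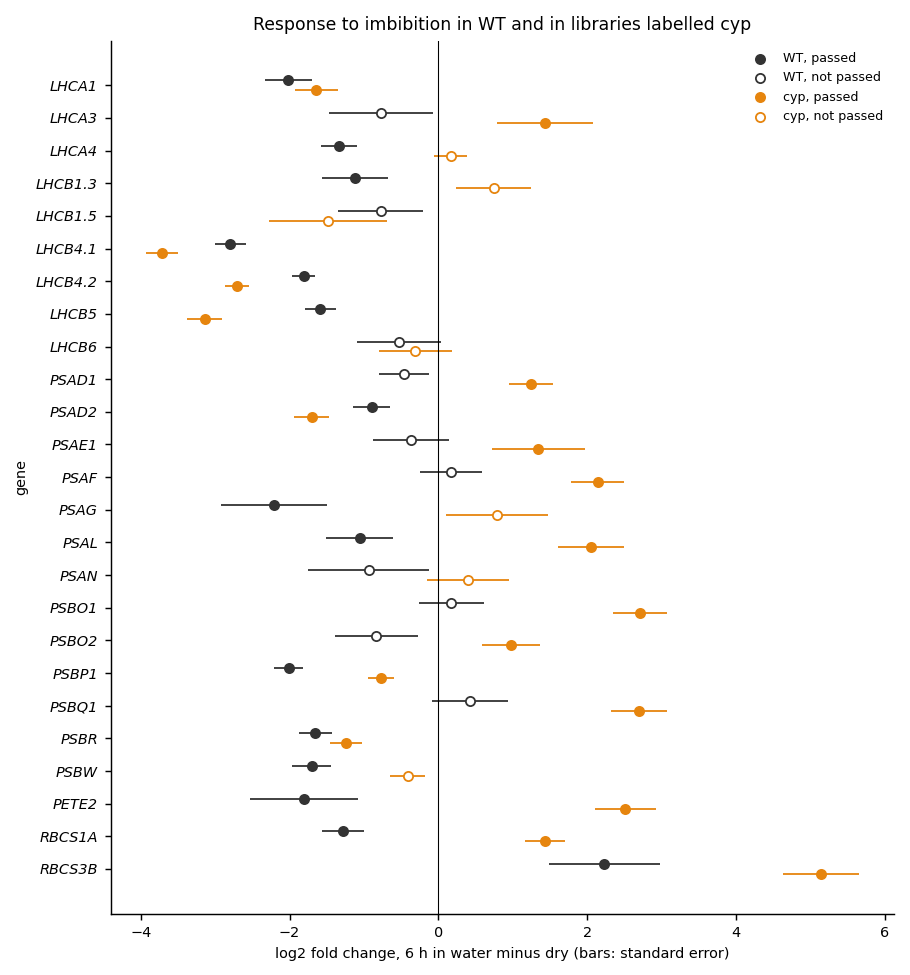
Log2 fold change from dry to water-imbibed seeds (x axis) for 25 tested genes (y axis) in WT (black) and in libraries labelled cyp (orange), with bars for the standard error and filled points for adjusted p under 0.05. RBCS2B is left out because it was at 0 in dry WT seeds. LHCB4.1, LHCB4.2 and LHCB5 lie further left in cyp than in WT, and RBCS1A and PETE2 lie left of 0 in WT and right of 0 in cyp.

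The monomeric antenna genes of photosystem II carried most of the fall. LHCB4.1 (AT5G01530), which encodes a minor antenna protein between the trimers and the core, was the most abundant of the 38 per kilobase of transcript in dry WT seeds, at 124 CPM per kb. Its level was 174, 163 and 181 CPM in dry WT seeds and 24.8, 25.5 and 24.3 CPM in water. In cyp it was 210, 188 and 206 CPM when dry and 16.1, 12.6 and 17.3 CPM in water. Dry and imbibed libraries did not overlap, and the imbibed cyp libraries were all below the imbibed WT libraries. On the log2 scale the change was -2.79 ± 0.20 (SE) in WT (adjusted p = 2.05e-14, edgeR) and -3.71 ± 0.21 in cyp (adjusted p = 7.82e-18, edgeR). The dry levels were lower in the other genotypes, 104 and 101 CPM in myb and 83.9, 94.3 and 83.9 CPM in qko. In water, myb had 16.1, 20.3 and 13.8 CPM and qko 9.13, 10.6 and 18.9 CPM. The falls there were -2.62 ± 0.22 in myb and -2.77 ± 0.21 in qko on the log2 scale.

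LHCB4.2 (AT3G08940), a paralog of the same antenna protein, was at 25.4, 24.3 and 26.5 CPM in dry WT seeds and 7.42, 7.27 and 7.06 CPM in water. In cyp it went from 25.97, 21.4 and 24.9 to 3.08, 4.09 and 3.86 CPM. The cyp libraries were below every WT library in water, and dry cyp replicate 8 was below the dry WT range. The log2 fold change was -1.81 ± 0.16 in WT and -2.71 ± 0.16 in cyp (adjusted p = 1.37e-12 and 2.51e-17, edgeR), against -1.18 ± 0.17 in myb and -1.02 ± 0.16 in qko. Of the counts of the pair, LHCB4.1 held 87.2% in dry WT seeds and 77.4% in water, and for qko this went from 83.8% to 59.8%.

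LHCB5 (AT4G10340), another monomeric antenna protein, went from 10.2, 10.1 and 13.9 CPM to 4.52, 3.41 and 3.40 CPM in WT. In cyp it went from 8.06, 8.37 and 7.77 CPM to 0.963, 0.915 and 0.854 CPM. All cyp libraries in water were below 1 CPM and none of WT was. On the log2 scale the change was -1.59 ± 0.21 in WT and -3.14 ± 0.24 in cyp, with -1.65 ± 0.24 in myb and -2.05 ± 0.21 in qko (adjusted p from 1.64e-07 in myb to 2.09e-14 in cyp, edgeR). LHCB6 (AT1G15820) was below 1 CPM in every library and did not pass in any comparison of imbibition, and LHCB3 (AT5G54270), a partner in the antenna trimers, had at most 8 counts in a library.

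The genes of the trimeric antenna, which dominate the light-harvesting transcripts of leaves, were low, and nearly silent apart from LHCB1.3. Of the 8 LHCB1 and LHCB2 genes, LHCB1.3 (AT1G29930) and LHCB1.5 (AT2G34420) were tested. LHCB1.1, LHCB1.2, LHCB1.4, LHCB2.1, LHCB2.2 and LHCB2.3 (AT1G29920, AT1G29910, AT2G34430, AT2G05100, AT2G05070 and AT3G27690) did not exceed 16 counts in any library, and LHCB2.3 was at 0 in 37 of the 45. LHCB1.3 was at 2.58, 5.47 and 2.33 CPM in dry WT seeds, the middle value being replicate 8. It was at 1.38, 0.499 and 0.615 CPM in cyp, 1.33 and 0.563 CPM in myb and 0.508, 0.549 and 0.345 CPM in qko, all below the dry WT libraries. The log2 difference from dry WT was -2.04 ± 0.49 in cyp, -1.88 ± 0.57 in myb and -2.88 ± 0.57 in qko (adjusted p = 0.0018, 0.00904 and 6.52e-05, edgeR). The call in myb was lost without dry WT replicate 8 or dry myb replicate 9. In water WT had 1.37, 1.64 and 1.74 CPM and cyp 1.48, 1.37 and 1.36 CPM, which overlapped, while myb (0.490, 0.529 and 0.626 CPM) and qko (0.429, 0.167 and 0.714 CPM) lay below WT. Reads of the near-identical LHCB1 copies can be divided wrongly among them, which makes the level of a single copy uncertain.

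Among the antenna genes of photosystem I, LHCA4 (AT3G47470) was the most abundant. Its level in WT went from 8.73, 8.60 and 9.98 CPM to 3.19, 3.94 and 3.66 CPM, and in cyp from 12.4, 11.5 and 8.55 CPM to 9.73, 11.2 and 15.4 CPM. The WT groups did not overlap and the cyp groups did. The log2 fold change was -1.34 ± 0.24 in WT (adjusted p = 9.1e-06, edgeR) and 0.16 ± 0.22 in cyp (adjusted p = 0.493, edgeR), and in qko it was -1.05 ± 0.24. The fall in myb, from 9.22 and 9.38 CPM to 5.47, 5.74 and 6.54 CPM, was -0.65 ± 0.26 on the log2 scale, and this call was lost without dry myb replicate 5 or 9 or imbibed myb replicate 6 or 7. LHCA1 (AT3G54890) went from 2.58, 2.98 and 2.40 CPM to 0.581, 0.863 and 0.510 CPM in WT, a log2 fold change of -2.02 ± 0.31, and also fell in cyp (-1.64 ± 0.29), myb (-1.12 ± 0.37) and qko (-1.06 ± 0.36). The call in myb was lost without dry replicate 9, and that in qko without dry replicate 7 or imbibed replicate 6. Dry LHCA1 was lower in myb (1.06 and 1.75 CPM) and qko (0.798, 1.03 and 1.52 CPM) than in every dry WT library. LHCA3 (AT1G61520) was below 1 CPM in every library, and its rise in cyp (1.43 ± 0.64) was lost without any single dry cyp library and without imbibed cyp replicate 8 or 9. LHCA2 (AT3G61470) had at most 8 counts in a library.

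The subunits of photosystem II split by gene on imbibition in WT. PSBR (AT1G79040), which helps to stabilise the oxygen-evolving complex, was the most abundant of them per kilobase. It went from 26.5, 31.4 and 32.7 CPM to 8.83, 11.01 and 8.93 CPM in WT and from 33.9, 30.5 and 34.5 CPM to 13.6, 12.5 and 15.7 CPM in cyp. It was far lower in myb, at 8.49 and 8.88 CPM when dry and 5.31, 5.82 and 4.62 CPM in water, and in qko, at 5.95, 6.46 and 4.97 CPM when dry and 2.27, 2.13 and 5.09 CPM in water. No myb or qko library reached the WT range of its treatment. The log2 difference from WT was -1.80 ± 0.26 in dry myb and -2.38 ± 0.24 in dry qko (adjusted p = 1.16e-06 and 2.32e-10, edgeR), and -0.87 ± 0.23 and -1.61 ± 0.25 in water (adjusted p = 0.00342 and 1.38e-06, edgeR).

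PSBP1 (AT1G06680), an extrinsic subunit of the oxygen-evolving complex, went from 24.2, 21.4 and 25.1 CPM to 5.80, 6.12 and 5.57 CPM in WT. In cyp it went from 29.3, 24.8 and 26.6 CPM to 16.6, 13.0 and 17.7 CPM. Both genotypes fell without overlap, and every imbibed cyp library was above every imbibed WT library. On the log2 scale the change was -2.01 ± 0.19 in WT and -0.77 ± 0.18 in cyp, with -1.31 ± 0.21 in myb and -1.79 ± 0.20 in qko. PSBW (AT2G30570), a small subunit that links the core to the antenna, went from 7.37, 7.74 and 9.40 CPM to 2.24, 2.55 and 2.72 CPM in WT and from 8.27, 9.81 and 10.2 CPM to 7.96, 7.13 and 6.13 CPM in cyp. Its log2 fold change was -1.71 ± 0.26 in WT (adjusted p = 4.35e-07, edgeR) and -0.41 ± 0.23 in cyp (adjusted p = 0.0958, edgeR).

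The other extrinsic subunits were low in WT and rose in cyp. PSBO1 (AT5G66570), which stabilises the manganese cluster, was at 1.502, 0.995 and 1.31 CPM in dry WT seeds and 1.24, 2.01 and 1.02 CPM in water, which overlapped. In cyp it went from 1.11, 1.33 and 1.398 CPM to 7.48, 7.29 and 10.3 CPM, a log2 fold change of 2.71 ± 0.36 (adjusted p = 2.64e-08, edgeR). PSBQ1 (AT4G21280) was at 0.644, 0.781 and 0.801 CPM and then 1.16, 1.36 and 0.468 CPM in WT. The cyp libraries went from 1.64, 0.832 and 1.01 CPM to 9.09, 5.23 and 8.38 CPM, above every WT library, with a log2 fold change of 2.69 ± 0.38 (adjusted p = 6.46e-08, edgeR). PSBO2 (AT3G50820), the paralog of PSBO1, reached 1.90, 2.09 and 2.72 CPM in imbibed cyp seeds against 0.249, 0.617 and 0.170 CPM in imbibed WT seeds, and its rise on imbibition in cyp was lost without dry cyp replicate 7 or imbibed cyp replicate 9. In myb, PSBO1 went from 0.796 and 0.125 CPM to 1.14, 1.59 and 1.65 CPM, a log2 fold change of 1.68 ± 0.60 (adjusted p = 0.0139, edgeR). That call was lost without dry myb replicate 9.

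Photosystem I subunits were low apart from PSAD2 (AT1G03130), which forms part of the docking site of ferredoxin. It went from 8.01, 9.38 and 8.67 CPM to 4.48, 4.44 and 5.06 CPM in WT and from 14.1, 16.0 and 15.1 CPM to 4.24, 4.38 and 5.22 CPM in cyp. In myb it was 4.64 and 5.50 CPM when dry and 6.49, 8.46 and 4.93 CPM in water, and in qko 7.11, 7.90 and 6.90 CPM when dry and 6.86, 8.41 and 14.3 CPM in water. Dry and imbibed libraries were separate in WT and cyp and overlapped in myb and qko. The log2 fold change was -0.90 ± 0.25 in WT (adjusted p = 0.00173, edgeR) and -1.70 ± 0.24 in cyp, against 0.38 ± 0.28 in myb and 0.43 ± 0.24 in qko, neither of which passed (adjusted p = 0.237 and 0.109, edgeR). Its paralog PSAD1 (AT4G02770) was at 1.22, 2.203 and 2.11 CPM and then 1.28, 1.397 and 1.32 CPM in WT, and went from 1.43, 1.61 and 1.90 CPM to 3.76, 3.89 and 4.05 CPM in cyp. PSAD1 made up 9.86% of the counts of the pair in dry cyp seeds and 45.9% in water, against 17.3% and 22.3% in WT.

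PSAL (AT4G12800), which helps to join photosystem I to the mobile antenna, was at 0.572, 0.497 and 1.38 CPM in dry WT seeds and 0.415, 0.575 and 0.170 CPM in water. In cyp it went from 0.159, 0.333 and 0.391 CPM to 1.25, 1.08 and 1.36 CPM, a log2 fold change of 2.05 ± 0.44 (adjusted p = 7.49e-05, edgeR). PSAF (AT1G31330), part of the docking site of plastocyanin, rose in cyp by 2.14 ± 0.36 on the log2 scale and reached 2.83, 2.78 and 3.38 CPM. PSAE1 (AT4G28750), PSAG (AT1G55670) and PSAN (AT5G64040) reached at most 1.145 CPM in any library, and PSAH2 (AT1G52230) and PSAK (AT1G30380) had at most 10 counts in a library. PSAE1 passed as higher on imbibition in cyp, but this was lost with DESeq2 and without the filter on low counts. Leaving out any single dry cyp library, or imbibed cyp replicate 7 or 9, lost it too.

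The tested genes of plastocyanin and of the Rubisco small subunit were higher in imbibed seeds labelled cyp than in imbibed WT seeds. PETE2 (AT1G20340), the main plastocyanin gene, was at 0.644, 0.781 and 0.510 CPM in dry WT seeds and 0.207, 0.247 and 0.0851 CPM in water. In cyp it went from 0.954, 1.27 and 1.23 CPM to 6.52, 4.84 and 8.41 CPM. On the log2 scale the change was -1.81 ± 0.73 in WT (adjusted p = 0.0262, edgeR) and 2.51 ± 0.41 in cyp (adjusted p = 1.15e-06, edgeR), and the groups did not overlap in either. The call in WT was lost without dry WT replicate 5 or 8 and without imbibed WT replicate 9. PETE1 (AT1G76100) was at 0 in 32 of the 45 libraries.

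RBCS1A (AT1G67090), the main small subunit gene of leaves, went from 28.3, 30.8 and 42.0 CPM to 14.6, 15.4 and 11.5 CPM in WT, and from 45, 40.1 and 40.6 CPM to 125, 82.7 and 130 CPM in cyp. In myb it went from 26.3 and 17.7 CPM to 11.2, 14.4 and 13.7 CPM, and in qko from 29.7, 32.5 and 29.4 CPM to 9.91, 10.9 and 18.2 CPM. It was thus lower after imbibition in every library of WT, myb and qko and higher in every library of cyp. The log2 fold change was -1.28 ± 0.29 in WT and 1.43 ± 0.27 in cyp, with -0.75 ± 0.32 in myb and -1.24 ± 0.29 in qko (adjusted p = 0.000158, 1.21e-05, 0.0389 and 0.00028, edgeR). The call in myb was lost without dry myb replicate 5 or imbibed myb replicate 6 or 9.

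RBCS3B (AT5G38410), a second small subunit gene, went from 0.215, 0.284 and 0.583 CPM to 2.16, 2.22 and 0.723 CPM in WT and from 1.01, 0.610 and 0.447 CPM to 25.2, 18.1 and 30.4 CPM in cyp. Both rises were without overlap, with log2 fold changes of 2.23 ± 0.74 in WT (adjusted p = 0.00805, edgeR) and 5.14 ± 0.51 in cyp (adjusted p = 2.24e-11, edgeR). RBCS2B (AT5G38420) was at 0 in all dry WT libraries and in dry cyp replicates 7 and 9. It reached 3.76, 2.42 and 2.59 CPM in imbibed cyp seeds against 0.0415, 0.0822 and 0.0425 CPM in imbibed WT seeds. RBCS1B (AT5G38430) had at most 7 counts in a library. RBCS1A made up 98.9% of the RBCS counts in dry WT seeds and 89.2% in water, against 98.4% and 80.3% in cyp. How reads divide among the near-identical RBCS1B, RBCS2B and RBCS3B is likewise uncertain.

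**Figure D3:**
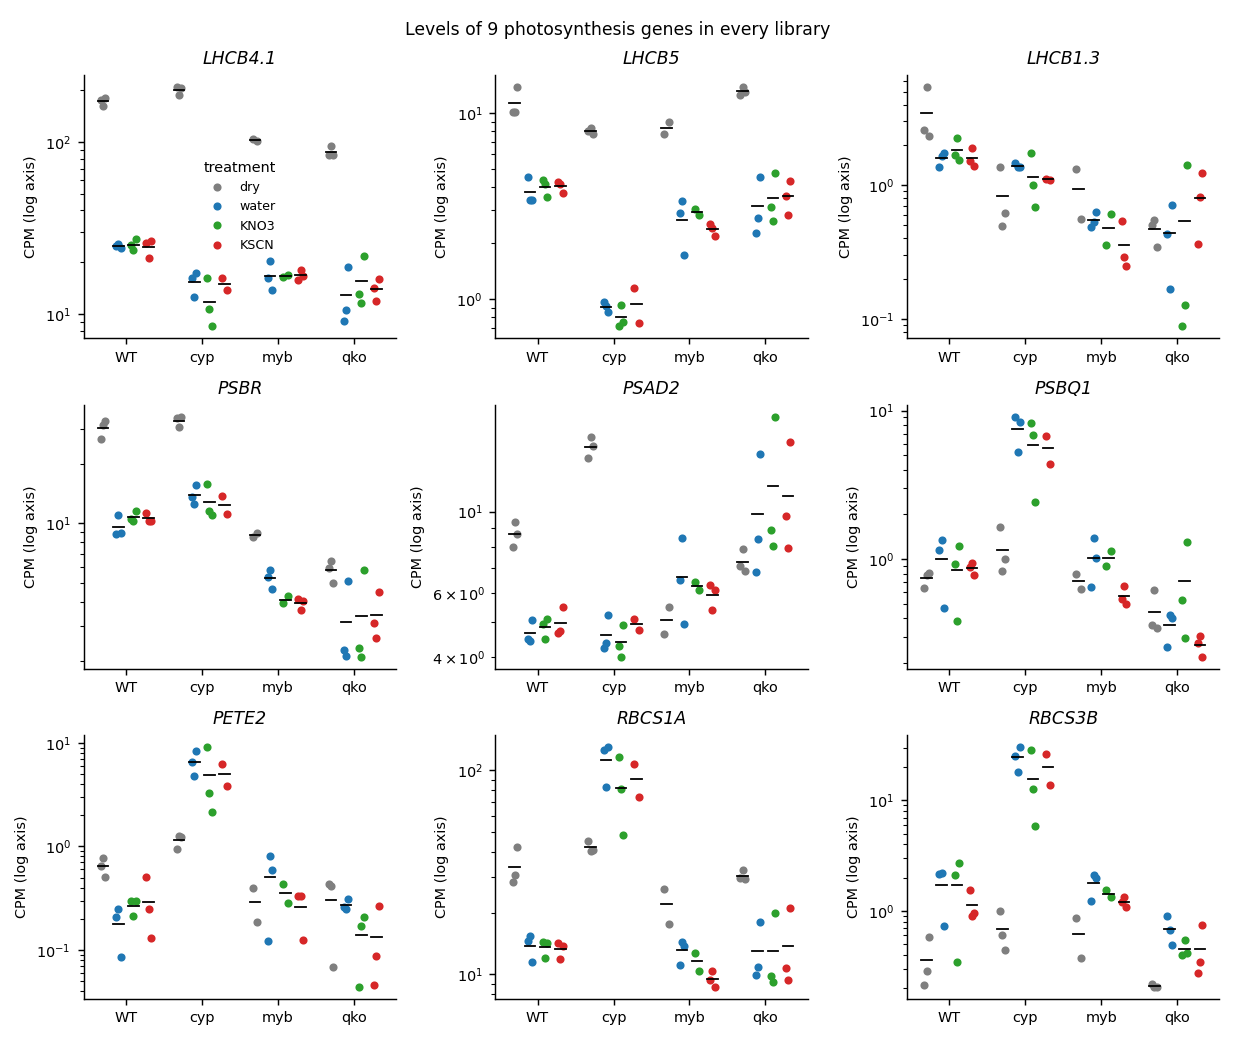
CPM (log axis) of 9 of the genes in each of the 45 libraries, by genotype label (x axis) and treatment (colour); points are libraries and lines are group means, and a library at 0 would not be drawn. RBCS1A, RBCS3B, PETE2 and PSBQ1 are highest in imbibed cyp libraries, LHCB5 is lowest there, and PSBR is lower in myb and qko than in WT.

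In water, libraries labelled cyp differed from WT in most of the tested genes: 15 of 26 were higher, where 31.2% of all loci were higher, and 4 were lower, where 31.9% of all loci were lower. The median log2 difference was 1.47, against 0.00 over all loci. All 6 photosystem II subunits and all 3 tested RBCS genes were higher, and the call of PSBR (0.54 ± 0.22) was lost without imbibed WT replicate 5 or 9 and without imbibed cyp replicate 7 or 9. RBCS2B reached the minimum count for testing in imbibed cyp libraries only, so it could be called only as higher there. The differences were 5.15 ± 0.52 for PETE2, 3.85 ± 0.43 for RBCS3B, 3.03 ± 0.29 for RBCS1A, 2.92 ± 0.37 for PSBQ1 and 2.67 ± 0.44 for PSBO2 on the log2 scale (adjusted p from 5.09e-11 for RBCS1A to 2.78e-06 for PSBO2, edgeR). The 4 lower genes were all antenna genes of photosystem II: LHCB5 (-2.05 ± 0.24), LHCB1.5 (-2.08 ± 0.69), LHCB4.2 (-0.98 ± 0.16) and LHCB4.1 (-0.70 ± 0.20). LHCB1.5 rested on 3, 1 and 3 counts in cyp against 9, 8 and 7 in WT. Its untested copy LHCB1.2 went the other way, with 9, 10 and 16 counts in cyp against 3, 4 and 2. The summed level of the 8 LHCB1 and LHCB2 genes overlapped, at 1.93 to 2.18 CPM in cyp and 2.03 to 2.47 CPM in WT. The fall of LHCB4.1 did not pass with total-count scaling. Markers of the seed tissues differed between the same libraries. Summed embryo markers, most of which were CRU3 and OLEO1 counts, were 7162 to 10716 CPM in these cyp libraries and 53419 to 55187 CPM in WT in water, while ABI3 of the same list was higher in cyp, at 555 ± 43.3 against 449 ± 24.5 CPM (SD, n = 3). Summed endosperm markers were 1968 to 3778 CPM in cyp and 5465 to 5721 CPM in WT, but the 2 genes went opposite ways: EPR1 was at 2358 ± 904 against 5588 ± 126 CPM and EXPA2 at 370 ± 107 against 12.6 ± 7.93 CPM (SD, n = 3). Summed seed coat markers were 1.798 to 2.119 CPM in cyp and 3.743 to 4.315 CPM in WT, with PRX36 at 0.130 ± 0.143 against 0.9985 ± 0.175 CPM (SD, n = 3) and TT12 at 0 in both. The part of these differences in the result was not tested.

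In dry seeds cyp and WT were closer. PSAD2 was higher (0.79 ± 0.24) and LHCB1.3, PSAE1 and PSAL were lower, that is 1 of 26 higher (16.1% of all loci) and 3 lower (13.4% of all loci). The call of PSAE1 was lost without dry WT replicate 5 or 8 or dry cyp replicate 8, and that of PSAL without dry WT replicate 9 or dry cyp replicate 7 and with total-count scaling. Dry myb seeds had 8 genes lower (17.3% of all loci) and 0 higher by edgeR (20.6% of all loci), and dry qko seeds 9 lower (23.5%) and 0 higher (25.4%). DESeq2 also called 0 higher in each, and 11 of the 26 genes in dry myb and 9 in dry qko had an unadjusted p under 0.05 in either direction. The comparisons share the dry WT libraries. The lower genes in myb were LHCA1, LHCB1.3, LHCB4.1, LHCB4.2, PSAD2, PSAL, PSBR and PSBW (4.64 and 4.003 CPM). Those in qko were LHCA1, LHCB1.3, LHCB4.1, LHCB4.2, PSAF, PSAL, PSBO1 (0.435, 0.343 and 0.621 CPM), PSBP1 and PSBR. PSBP1 in dry qko seeds was at 15.7, 15.8 and 14.7 CPM, below every dry WT library, with a log2 difference of -0.61 ± 0.19 (adjusted p = 0.00604, edgeR). The count in myb fell to 2 without dry myb replicate 9 and to 5 without WT replicate 8 or 9. Of the calls in myb, that of PSBR alone was kept whichever single library was left out. In qko the calls of PSAF and PSAL were lost without dry WT replicate 9 or dry qko replicate 4, and that of PSBO1 without dry WT replicate 5 or 9 or dry qko replicate 4 or 6. Summed embryo markers were 97740 to 109031 CPM in dry myb and 89490 to 99893 CPM in dry qko, below dry WT. Summed endosperm markers were 12506 and 37414 CPM in dry myb and 17568 to 35485 CPM in dry qko, and summed seed coat markers 2.502 and 2.520 CPM and 3.517 to 4.061 CPM. The endosperm sums were almost wholly EPR1, with EXPA2 at most 0.5003 CPM in dry myb and 0.0687 CPM in dry qko. The seed coat markers went different ways. In dry qko the mean of PRX36 was 2.43 against 1.13 CPM in dry WT. BAN (0.0942 against 0.528 CPM) and AHA10 (1.26 against 1.77 CPM) were lower there. The part of these markers in the result was not tested.

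In water the myb and qko libraries differed from WT in few of the genes. In myb, 1 was higher (LHCA4, 0.72 ± 0.24), where 17.9% of all loci were, and LHCB1.3, LHCB4.1 and PSBR were lower, where 17.7% of all loci were. In qko, PSAD2 (1.08 ± 0.24) and PSAG (2.15 ± 0.66) were higher, where 25.8% of all loci were, and LHCB1.3, LHCB4.1, PSBQ1 and PSBR were lower, where 24.9% of all loci were. PSAG was at 0.172, 0.209 and 0.803 CPM in qko in water, the last being replicate 7, against 0.0822 to 0.0851 CPM in WT, and without replicate 7 it was too low to be tested, which left 1 higher gene. PSBQ1 was at 0.257, 0.418 and 0.402 CPM in qko in water, below every WT library there, and its call was lost without imbibed WT replicate 5 or 8 or imbibed qko replicate 4. In myb the call of LHCA4 was lost without imbibed WT replicate 5 or imbibed myb replicate 9. Those of LHCB1.3 and LHCB4.1 were lost without imbibed myb replicate 6, among other single libraries (WT replicate 9 and myb replicate 7 for LHCB1.3, WT replicates 5 and 8 and myb replicate 9 for LHCB4.1).

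**Figure D4:**
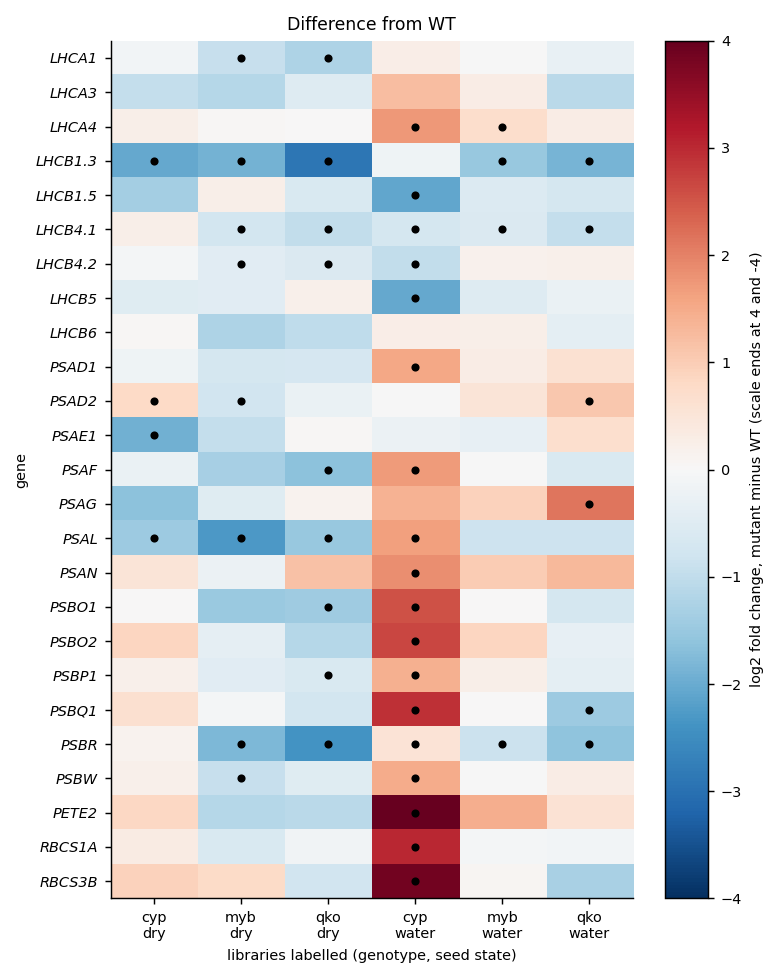
Log2 difference from WT (colour, limited at 4 and -4) for 25 tested genes (y axis) in dry and water-imbibed libraries of each mutant label (x axis); black dots mark adjusted p under 0.05. The water-imbibed cyp column has 14 dots on higher genes and 4 on lower ones, and LHCB1.3 is marked in every column except imbibed cyp.

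The response to imbibition itself differed from that of WT for 17 of the 26 genes in cyp, by the contrast of the 4 groups in the same edgeR fit. The response was higher for 14, where 12.3% of all loci had a higher response, and lower for LHCB4.1, LHCB4.2 and LHCB5, where 22.8% of all loci had a lower one. In myb the response was higher for PSAD2 (5.39% of all loci) and lower for 0 genes (6.14%). In qko it was higher for LHCB4.2, PSAD1 and PSAD2 (14.1%) and lower for 0 (13.6%). For myb and qko, 6 genes each had an unadjusted p under 0.05 in either direction, and DESeq2 also called 0 lower responses.

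With all libraries in the fit and no replicate block, no photosynthesis gene passed the threshold between KNO3 or KSCN and water in any genotype. By edgeR, 0 of 26 passed in each of the 8 comparisons, and DESeq2 also called 0. The result for KNO3 in cyp changed under 2 of the alternatives run: 9 genes were lower there without replicate 6, and 4 were lower (PSBP1, PETE2, RBCS1A and RBCS3B) with the replicate block. Of all loci, 1.98% passed with KNO3 in cyp and 0.00% in the other 7 comparisons. At an unadjusted p under 0.05 there were PSBP1 and PSAN with KNO3 in cyp, PSAN and PSBP1 with KSCN in myb, and 0 genes in the other 6 comparisons. PSBP1 in cyp was at 16.7, 10.0 and 7.51 CPM in KNO3 (replicates 6, 7 and 8) against 16.6, 13.0 and 17.7 CPM in water, which overlapped, with a log2 difference of -0.46 ± 0.18 (adjusted p = 0.18, edgeR). PSAN in myb was at 0 to 0.083 CPM in KSCN and 0.0813 to 0.392 CPM in water (adjusted p = 0.335, edgeR).

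The cyp libraries in KNO3 spread widely, and in one direction for the genes that were high in imbibed cyp seeds. RBCS1A was at 117, 80.8 and 48.0 CPM in replicates 6, 7 and 8, RBCS3B at 28.6, 12.6 and 5.83 CPM and PETE2 at 9.16, 3.29 and 2.17 CPM. Replicate 6 was the highest for each and lay within or just above the range in water. In the other 6 comparisons the gene with the smallest p was PSAG with KNO3 and with KSCN in WT and with KSCN in cyp, LHCA1 with KNO3 in myb, PSBO1 with KNO3 in qko and PSAN with KSCN in qko. The log2 differences were 1.09 ± 0.75 and 0.97 ± 0.77 for PSAG in WT, -0.97 ± 0.70 for PSAG in cyp, -0.68 ± 0.42 for LHCA1, 0.71 ± 0.43 for PSBO1 and -1.41 ± 0.72 for PSAN, each with an adjusted p of 1 by edgeR.

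Across the 20 photosynthesis genes that reached 1 CPM in a group, the levels went together only in part. The median Pearson correlation over the 16 group means was 0.41 for the 190 pairs of genes, and within groups it was 0.43. Pairs went both ways. Over the 12 imbibed group means, PETE2 correlated at 0.985 with RBCS1A and at -0.967 and -0.957 with LHCB4.2 and LHCB5. These are descriptions, since the groups share genotypes and the scaling of their libraries.

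Genes that work with the photosynthetic apparatus were read in the same comparisons. Of 16 tested nuclear subunit genes outside the 38, 5 were higher and 5 lower on imbibition in WT, and 11 and 4 in cyp. For this and the lists that follow, the shares of all loci that were higher and lower were 37.1% and 33.5% on imbibition in WT, 40.8% and 38.9% in cyp, and 31.2% and 31.9% in cyp against WT in water. In water, 13 of the 16 were higher and 1 lower in cyp than in WT. ATPC1, a subunit of the plastid ATP synthase, was at 0.957 CPM in WT and 18.1 CPM in cyp in water (log2 difference 4.23), PSBX at 0.389 and 6.94 CPM, and PSBTn at 0.444 and 5.02 CPM. Of 13 Calvin cycle genes, 1 was higher and 8 lower on imbibition in WT, 4 and 7 in cyp, and 9 were higher and 1 lower in cyp than in WT in water. FBA2, a plastid aldolase, was at 1.07 CPM in WT and 18.2 CPM in cyp in water, and RCA, the activase of Rubisco, at 6.97 and 37.3 CPM.

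Genes of chlorophyll synthesis and of chlorophyll breakdown were counted apart. Of 13 tested genes of chlorophyll synthesis, 6 were higher and 5 lower on imbibition in WT, shares near those of all loci (37.1% and 33.5%). In cyp 9 were higher and 1 lower on imbibition (40.8% and 38.9% of all loci), and 11 were higher and 1 lower in cyp than in WT in water (31.2% and 31.9% of all loci). CHLI1, a subunit of magnesium chelatase, went from 0.336 to 3.17 CPM in WT and from 0.729 to 23.4 CPM in cyp, and PORB, a protochlorophyllide reductase, was at 0.209 CPM in WT and 2.16 CPM in cyp in water. Of 7 genes of chlorophyll breakdown, 5 were lower on imbibition in WT and 2 did not pass, and in cyp 6 were lower and 1 did not pass, where 33.5% and 38.9% of all loci were lower. SGR1, which removes magnesium from chlorophyll, went from 767 to 91.4 CPM in WT and from 846 to 19.7 CPM in cyp, and NYC1, a chlorophyll b reductase, from 692 to 89.7 CPM and from 431 to 21.4 CPM.

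Of 17 regulators of photosynthesis genes, 6 were higher and 7 lower on imbibition in WT, near the shares of all loci (37.1% and 33.5%), and 7 and 4 in cyp (40.8% and 38.9% of all loci). In water 7 were higher and 4 lower in cyp than in WT (31.2% and 31.9% of all loci). GLK1, an activator of antenna genes, was at 3.53 CPM in WT and 1.34 CPM in cyp in water (log2 difference -1.40), HY5, a light-response factor, at 12.4 and 4.64 CPM, and PIF4 at 3.86 and 18.4 CPM. GLK2 was at 52.3 and 54.5 CPM and did not pass. Of the 6 nuclear sigma factors, which direct the plastid polymerase, 5 were higher and 1 lower in cyp than in WT in water, and of 4 relatives of the antenna proteins 2 were higher and 1 lower. ELIP1, an early light-induced protein, was the lower of the latter, at 1.91 CPM in WT and 0.278 CPM in cyp.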

How the data were processed

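Per the submitters' processing notes, the authors quantified transcripts with Salmon. Its version, index and genome build were not given in the sources used here. The authors deposited expected counts, of which 41.6% hold decimals. Of 48073 nuclear transcript names, 48072 occur in the RefSeq TAIR10.1 annotation, which supplied positions and promoters. Estimated counts of 48268 transcripts were summed over 27587 loci and rounded; sequence shared between near-identical copies is divided by estimation.

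Tests used edgeR 4.0.16 (R 4.3.3; quasi-likelihood test, TMM scaling, 1 coefficient for each of 16 groups, all 45 libraries). The filter on low counts (minimum count 10, minimum total 15) left 18066 loci and removed 9521, among them 12 of the 38 genes. Adjusted p are Benjamini-Hochberg values over all tested loci of a comparison, with a threshold of 0.05. CPM used TMM scaling, and SE came from the F statistic. The fit was checked on simulated counts, with cyp in water set to the WT levels and some loci changed by known folds. Most loci did not differ there, so this check could not test the dependence on TMM scaling. DESeq2 1.42.0, total-count scaling, no filter, a replicate block, summed copies, only the groups compared and leaving out libraries were alternatives.

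Genes and lists were chosen with earlier results of these data known. Values in every library are given for up to 6 genes per comparison with the largest change and at least 1 CPM, and for the most abundant gene of each class; a gene of other lists was drawn from the 3 with the largest change. The 5 promoters shown were picked for the expression results of their genes and kept with their motif matches known.

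Replicate numbers were taken to pair libraries where at least 3 pairs all correlated in their deviations from the group means, which held for the treatments in qko (0.338 to 0.562 for KNO3 and water, 0.371 to 0.625 for KSCN and water). The labels give no origin for the numbers. With the replicate block 0 genes passed there, as without it.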

Additional observations from a re-analysis of the deposited data

Results flagged for a closer look

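The difference between a mutant's response to imbibition and that of WT was tested as a contrast of the 4 groups in edgeR, and these results passed. In cyp the log2 difference in response was 4.32 for PETE2, 3.11 for PSAL, 3.004 for PSAG, 2.91 for RBCS3B, 2.71 for RBCS1A, 2.54 for PSBO1 and 2.27 for PSBQ1. It was 1.97 for PSAF, 1.87 for LHCB1.3, 1.81 for PSBO2, 1.71 for PSAD1, 1.499 for LHCA4, 1.29 for PSBW and 1.25 for PSBP1. It was below 0 for LHCB5 (-1.55), LHCB4.1 (-0.92) and LHCB4.2 (-0.90). RBCS1A and PETE2 fell in WT and rose in cyp, with no overlap between dry and imbibed libraries in either, though their falls in WT did not pass with total-count scaling.

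The difference for RBCS3B was lost with total-count scaling and in 8 of the settings that leave out a library, and that for PSBO2 in 7 such settings. The difference for LHCB1.3 was lost in 4 of them, among them the one without dry WT replicate 8, and that for PSAG was lost in that one. PSAG rested on few counts. It had 5, 8 and 4 in dry WT libraries and 2, 2 and 2 in WT in water. In cyp it had 1, 3 and 3 when dry and 7, 9 and 5 in water.

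In myb the difference in response was 1.28 for PSAD2, and it was lost with the replicate block and without any of 4 single libraries. In qko it was 1.33 for PSAD2, 0.78 for LHCB4.2 and 1.303 for PSAD1. The difference for PSAD1 in qko was lost in 12 alternatives, among them the one without the qko libraries numbered 7.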

How the results depend on the processing

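Of 128 calls of single photosynthesis genes, 77 were kept under every alternative run for them; of 1693 alternative values, 1519 kept the direction and the call, 173 lost the call and 1 turned. The one that turned was LHCA4 in myb on imbibition, at 0.0288 (log2) with total-count scaling. With total-count scaling the counts of higher and lower genes on imbibition were 3 and 8 in WT, 7 and 4 in myb and 5 and 3 in qko, with 7 higher in dry cyp and 5 lower in dry myb. DESeq2 gave 4 higher on imbibition in myb, and no filter gave 1 in qko. With only the groups compared there were 1 higher on imbibition in qko, 5 higher in dry cyp, 2 higher in myb and 1 in qko in water, and 6 higher responses in myb. Without the qko libraries numbered 7 there were 0 higher on imbibition, 1 higher in water and 1 lower response. The cause was not tested.

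Outside the qko treatments there were under 3 pairs or a correlation of deviations under 0.1, so replicate numbers were not taken to pair libraries; with KNO3 and water, 2 pairs correlated at 0.189 and 0.236 in WT and at 0.0895 and 0.496 in cyp, and 1 pair with KSCN and water in cyp at 0.442. With the replicate block, 6 genes were lower on imbibition in myb, 0 were higher in myb in water, 5 responses were higher in qko, and 4 genes (PSBP1, PETE2, RBCS1A and RBCS3B) were lower with KNO3 in cyp, where calls over all loci went from 358 to 2284.

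Leaving out 1 library at a time gave 0 to 3 higher and 6 to 8 lower genes on imbibition in myb, 0 to 3 higher on imbibition in qko, 2 to 7 lower in dry myb, 0 to 2 higher and 1 to 3 lower in myb in water, 1 to 3 higher in qko in water, 0 to 2 higher responses in myb, 2 to 6 higher and 0 to 1 lower responses in qko, and 0 to 9 lower with KNO3 in cyp, where the 9 came without replicate 6. Genes near 1 CPM rest on some 20 counts in a library, and their changes are less certain than those of LHCB4.1 or RBCS1A.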
